A study of Mus musculus with 4 samples.

Results

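The genes described here are those of the MHC class II pathway and its regulators: the classical chains H2-Aa, H2-Ab1 and H2-Eb1, the peptide editor chains H2-DMa and H2-DMb1, the modulator chains H2-Oa and H2-Ob, the invariant chain gene Cd74 and the class II transactivator gene Ciita. These 9 genes were chosen by name, with earlier results of these data known. A probe set counted as a member's when the platform annotation gave it that gene symbol alone. By this rule 8 of them were among the 18193 genes with a probe set of their own, and they had 16 of the 34945 such probe sets. H2-DMb1 had none, because its probe sets are annotated to H2-DMb2 as well.

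MHC class II molecules are pairs of an alpha and a beta chain that carry peptides from the endosomes to the cell surface, where CD4 T cells read them. They are assembled on the invariant chain, which lysosomal proteases cut down to a fragment in the peptide groove. H2-DM exchanges that fragment for peptide, and H2-O restrains H2-DM. Transcription of the whole set is governed by Ciita, a coactivator that does not bind DNA itself but docks on factors bound at the X and Y boxes of class II promoters. In the mouse thymus class II is known from epithelial cells, dendritic cells, macrophages and B cells, whereas double positive thymocytes are not counted among the presenting cells.

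Double positive thymocytes, the developing T cells that carry both CD4 and CD8, were profiled on 4 arrays, 1 per mouse. The Cre-negative mice (Ikf/f CD4-Cre-, n = 2) had floxed Ikzf1 and no Cre, and the Cre-positive mice (Ikf/f CD4-Cre+, n = 2) carried in addition a Cre transgene driven by Cd4 regulatory elements, which is meant to delete Ikaros in T cells from about this stage on. All 4 mice had the floxed alleles and no Cre-positive mouse lacked them, so effects of Cre and of Ikaros loss cannot be told apart. The sources used here do not give strain, age, sex, the method of isolation, the deleted part of Ikzf1 or whether the arrays were processed together, so a batch that followed the genotype could not be separated from it. Values are RMA signals, a background-corrected and normalized summary of each probe set, taken to be on the log2 scale. Pairs of values are given for array 1 and then array 2 of a group, numbered as the labels number the samples.

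The targeted gene was checked first. Ikzf1, by its brighter probe set, gave 12.40 and 12.08 on the Cre-negative arrays and 10.80 and 10.62 on the Cre-positive arrays, a difference of −1.53 ± 0.16 (SE; limma adjusted p = 0.024), which lost its call when any array was left out (−1.69 to −1.37). Its dimmer probe set gave 5.73 and 5.81 against 5.35 and 5.74, with overlapping groups and a difference of −0.22, and the mean of both probe sets differed by −0.88 (adjusted p = 0.037). Which part of the transcript either covers, relative to the deleted part, is not given in the sources used here. Of 10 thymocyte genes listed, the 9 measured included Cd4 (10.37 to 10.64), Cd8a (12.71 to 13.04) and Rag1, a recombinase subunit (13.25 to 13.46), with high signals on every array. Cre-negative array 2 had the female pattern, with Xist, the RNA of the inactive X chromosome, at 12.75 against 4.73 to 5.37 on the other 3 arrays.

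The promoters of 6 members were in the RefSeq table (GRCm38.p6), each as 250 bases before to 50 bases after the start. They are shown for their shared layout, an X box followed by a Y box. The X box as first searched (CCNAGNNAC) followed on the same strand within 10 to 40 bases by the Y box core (ATTGG) was found in 3 of them, H2-DMb1, H2-Oa and H2-Ob, against 0.514% of 32851 promoters with either strand counted. A looser X box (CNNGNAAC), chosen after these promoters were read, gave the pair in 5 of the 6, against 1.3% of all promoters. The stretches below run 5′ to 3′ on the gene's own strand, with the looser X box and the ATTGG core in capitals:
H2-Aa: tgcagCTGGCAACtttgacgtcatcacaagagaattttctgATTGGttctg
H2-Eb1: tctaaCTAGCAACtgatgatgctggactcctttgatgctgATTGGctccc
H2-DMb1: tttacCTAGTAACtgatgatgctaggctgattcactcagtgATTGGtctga
H2-Oa: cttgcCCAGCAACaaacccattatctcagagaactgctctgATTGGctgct
H2-Ob: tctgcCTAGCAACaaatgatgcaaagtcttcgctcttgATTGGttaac
The stretches lie at chr17:34287862-34287912 (H2-Aa, minus strand), chr17:34305768-34305817 (H2-Eb1, plus strand), chr17:34153089-34153139 (H2-DMb1, plus strand), chr17:34092295-34092345 (H2-Oa, plus strand) and chr17:34238810-34238857 (H2-Ob, plus strand). The X box began 79 to 97 bases and the ATTGG core 43 to 61 bases before the start, with 25 to 28 bases between them. Neither H2-DMa promoter held the pair with either X box. H2-Ab1, Cd74 and Ciita had no entry.

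The classical class II genes showed the largest differences among the members, all towards higher signal in the Cre-positive mice. H2-Ab1, the beta chain of the A molecule, gave 6.74 and 6.13 on the Cre-negative arrays and 8.10 and 7.94 on the Cre-positive arrays. Both Cre-positive arrays lay above both Cre-negative arrays. H2-Ab1 rose by 1.58 ± 0.22 on the log2 scale (difference ± SE), a 2.999-fold higher signal (limma with Benjamini-Hochberg adjustment, adjusted p = 0.0453). Genes were tested where their mean signal reached the 40th percentile of the named probe sets, 4.76, and called at an adjusted p under 0.05. H2-Ab1 was the member that passed, 1 of 8 tested, where 1.37% of the 11639 genes tested passed in either direction and 1.11% as higher. The call did not survive leaving out any array: the difference then lay between 1.28 and 1.89, with adjusted p between 0.103 and 0.176. In bulk RNA a change in the number of cells that carry a transcript and a change in RNA per cell cannot be told apart.

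H2-Aa, the alpha chain that pairs with H2-Ab1, gave 7.01 and 5.89 on the Cre-negative arrays and 8.65 and 8.75 on the Cre-positive arrays. The Cre-negative arrays differed from each other by 1.11, the Cre-positive arrays by 0.10. The difference of 2.25 ± 0.35 (SE), a 4.75-fold higher mean signal, had an adjusted p of 0.054 in limma and so did not pass. It was the 39th largest increase among the 11639 genes. Among the members, the difference of H2-Aa moved most when an array was left out. Without Cre-negative array 1 the difference was 2.80 and passed (adjusted p = 0.0387), and without Cre-negative array 2 it was 1.69 (adjusted p = 0.109), and the highest adjusted p, 0.191, came without Cre-positive array 1.

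H2-Eb1, the beta chain of the E molecule, gave 6.07 and 5.30 on the Cre-negative arrays and 7.36 and 7.36 on the Cre-positive arrays. The groups did not overlap, and the Cre-negative arrays again stood 0.77 apart with array 2 the lower. The difference was 1.68 ± 0.26 (SE), 3.20-fold, with an adjusted p of 0.0531 in limma, above the threshold. Under the alternatives tried H2-Eb1 passed in 7 of 15 and H2-Aa in 7 of 14. For H2-Aa, H2-Ab1 and H2-Eb1 the lowest array was thus Cre-negative array 2, the one with the female pattern; with it left out the differences were 1.69, 1.28 and 1.29. Whether sex bears on these genes was not tested, since 1 array had that pattern.

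**Figure D1:**
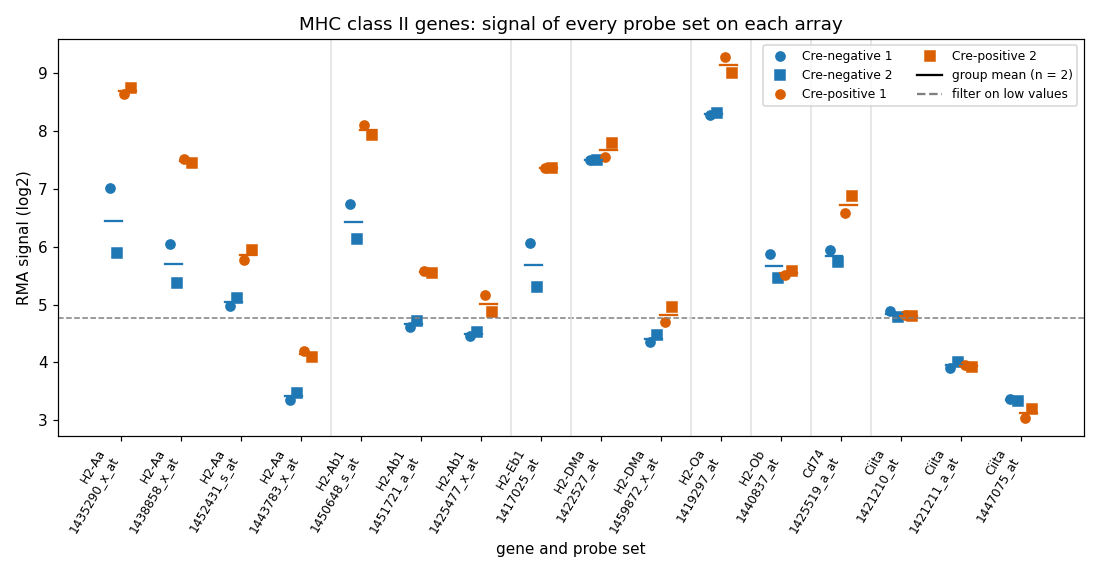
RMA log2 signal (y axis) of each of the 16 member probe sets (x axis) on the 4 arrays, with bars at the group means of 2 arrays and a dashed line at the filter on low values, 4.76. All probe sets of H2-Aa, H2-Ab1 and H2-Eb1 have both Cre-positive points above both Cre-negative points, and the points of the upper 2 Ciita probe sets lie on top of each other.

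Every further probe set of the classical genes pointed the same way, with smaller differences where the signal was low. For H2-Aa the other 3 probe sets differed by 1.77, 0.82 and 0.73, the last one below the filter. For H2-Ab1 the other 2 differed by 0.90 and 0.52. Tested as probe sets in their own right among 20967 (0.868% called), one of H2-Aa (5.71 against 7.48) and one of H2-Ab1 (4.67 against 5.56) each passed at a limma adjusted p of 0.0492, while the brightest probe sets of both genes missed the threshold at 0.0591 and 0.0529. All 4 H2-Aa probe sets and 2 of the 3 of H2-Ab1 carry the suffix that marks possible binding to several transcripts. The H2-Ab1 probe set without it is the one that passed here, by 0.90; its Cre-negative mean lay under the filter of 4.76, so it was tested only because of its level on the Cre-positive arrays, and its call is not support for that of the brightest probe set.

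Cd74 encodes the invariant chain, the chaperone that fills the class II groove during assembly. It gave 5.94 and 5.73 on the Cre-negative arrays and 6.58 and 6.87 on the Cre-positive arrays. The groups were separate by more than the gap within either. The difference was 0.89 ± 0.15 (SE), 1.85-fold, and did not pass (limma adjusted p = 0.0632; 0.154 to 0.227 with 1 array left out).

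The H2-O and H2-DM genes spanned differences from −0.11 to 0.84. H2-Oa, the alpha chain of the H2-DM inhibitor, gave 8.29 and 8.32 on the Cre-negative arrays and 9.28 and 9.004 on the Cre-positive arrays. Its Cre-negative arrays were 0.03 apart and its Cre-positive arrays 0.28 apart. The difference of 0.84 ± 0.14 (SE) was larger than both gaps and did not pass (limma adjusted p = 0.0579). Its partner chain H2-Ob read 5.87 and 5.46 against 5.52 and 5.58, with overlapping groups and a difference of −0.11 (95% interval −0.53 to 0.30). The difference between the H2-Oa and H2-Ob responses was not itself tested.

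H2-DMa, the alpha chain of the peptide editor, gave 7.51 and 7.50 on the Cre-negative arrays and 7.56 and 7.79 on the Cre-positive arrays. The lower Cre-positive array lay only just above the Cre-negative pair. The difference was 0.17 (95% interval −0.15 to 0.49; limma adjusted p = 0.519), and the dimmer H2-DMa probe set, below the filter, differed by 0.41.

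Ciita, which switches the whole set on in presenting cells, showed no detectable difference. Its brightest probe set gave 4.89 and 4.79 on the Cre-negative arrays and 4.82 and 4.80 on the Cre-positive arrays, just above the filter of 4.76. In limma the difference was −0.03 with a 95% interval of −0.31 to 0.25 (adjusted p = 0.917). The other probe sets of Ciita lay below the filter and differed by −0.01 and −0.23, the latter with both Cre-positive arrays lower, at 3.04 and 3.19 against 3.36 and 3.33. At signals this low an array may miss a change in a scarce transcript, and the sources used here do not say which of the alternative first exons of Ciita the probe sets cover.

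As a group, 1 of the 8 tested members rose, 0 fell and 7 did not pass, with 5 at an unadjusted p under 0.05, where 20.6% of all tested genes had such a p. The count of called members lay between 0 and 4 under other filters, probe sets, priors and scalings or with 1 array left out. In 6 of the 8 both Cre-positive arrays were above both Cre-negative arrays, against 34.2% of all tested genes, and in 0 were both below, against 18.7%. Over all 16 member probe sets these counts were 12 and 1, against 26.6% and 19.4% of the named probe sets. The median difference of the members was 0.87, that of all tested genes 0.06. Because the members were chosen with earlier results of these data known, their standing against all genes is a description and carries no test. H2-Aa, H2-Eb1 and H2-Ab1 differed by at least 1, as did 2.09% of all genes tested, while H2-DMa, Ciita and H2-Ob stood between −0.11 and 0.17.

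Most class II genes sit side by side in the MHC, and genes along that stretch differed by unequal amounts. From H2-Oa to H2-Ea the RefSeq table lists 15 protein-coding genes and transcribed pseudogenes, 7 of them members. Of the other 8, all tested, 0 were called in limma, with a median difference of 0.18. Among them were Psmb9, an immunoproteasome subunit, at 0.98 (adjusted p = 0.0667) and the peptide transporter gene Tap1 at 0.50. The neighbours on either side of H2-Ab1, H2-Aa and H2-Eb1 are H2-Ob, given above, and H2-Eb2, which gave 6.97 and 7.04 on the Cre-negative arrays and 7.04 and 7.33 on the Cre-positive arrays (difference 0.18). H2-Ea, the E alpha gene, listed by RefSeq as a transcribed pseudogene in C57BL/6J, differed by −0.09, with overlapping groups.

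**Figure D2:**
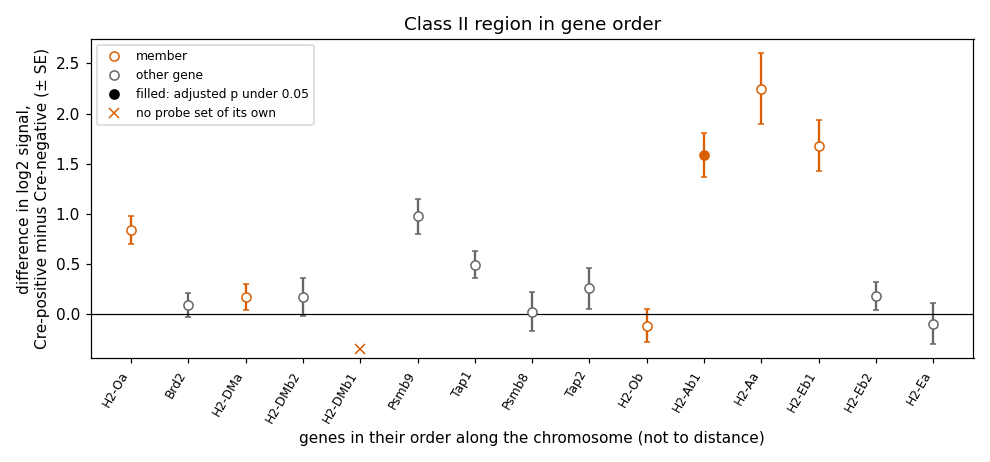
Difference in log2 signal, Cre-positive minus Cre-negative, with its SE (y axis) for the 15 genes from H2-Oa to H2-Ea in chromosome order (x axis, not to distance), each by its brightest probe set, n = 2 arrays per group. H2-Ab1, H2-Aa and H2-Eb1 stand at 1.58 to 2.25, and the genes on either side of them, H2-Ob and H2-Eb2, at −0.11 and 0.18.

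Class II genes with the pair of X and Y boxes covered nearly the whole range of differences. With the looser X box the pair was present upstream of H2-Aa, H2-Eb1 and H2-Oa, which differed by 0.84 to 2.25, and likewise upstream of H2-Ob (−0.11) and the relative H2-Eb2 (0.18). Across the array, 179 other tested genes had a promoter with that pair. Of them 1 was called, as lower, and 0 as higher (0.559% in either direction, against 1.37% of all tested genes). Their median difference was 0.08, against 0.06. With the X box as first searched, 1 of 71 was called, also as lower, 1.41%.

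Among the lysosomal genes that process antigen and the invariant chain, limma called 2 of the 8 tested higher and 0 lower. The other 6 did not pass, and the median difference over the 8 was 0.32. Of all tested genes 1.11% rose and 0.266% fell. Ctss, cathepsin S, the protease that makes the last cuts in the invariant chain in dendritic and B cells, gave 6.20 and 5.31 on the Cre-negative arrays and 8.79 and 8.69 on the Cre-positive arrays. It rose by 2.98 ± 0.29 (SE; limma adjusted p = 0.0205), and Cre-negative array 2 was again the lowest array. Ctsh, cathepsin H, gave 4.63 and 4.53 against 5.38 and 5.54, a difference of 0.88 ± 0.12 (limma adjusted p = 0.0456). Its Cre-negative mean lay under the filter, so Ctsh was tested only because of its level on the Cre-positive arrays. The call of Ctsh is therefore not support for a difference. Ifi30, the thiol reductase that opens disulphide bonds of antigens, differed by 0.80 ± 0.13 (adjusted p = 0.0559).

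Ctsl, cathepsin L, which takes the place of cathepsin S in thymic epithelium, differed the other way, at 11.68 and 11.41 against 10.96 and 11.05, by −0.54 (limma adjusted p = 0.122). The calls of Ctss and Ctsh depended on single arrays. Ctss stayed called without Cre-negative array 1 and lost its call without each of the other 3 (adjusted p 0.0318 to 0.086), and Ctsh lost its call without any array (0.148 to 0.209).

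Of the factors that bind class II promoters, and their coactivators, none was called by its brightest probe set. Of 10 tested, limma called 0, and 0 had an unadjusted p under 0.05, against 20.6% of all tested genes. The median difference was 0.05. The largest differences were those of the Y box factor subunit gene Nfyc (0.22), the acetyltransferase gene Ep300 (0.21) and Nfya (0.21, but −0.03 with the mean of its probe sets). Rfx5, which encodes the X box factor missing in a form of bare lymphocyte syndrome, read 8.54 and 8.73 against 8.58 and 8.54. The groups overlapped for Rfx5 and its signal was well above the filter in both. For 2 coactivator genes, both acetyltransferases, dimmer probe sets differed more than the brightest. Crebbp differed by 0.10 in its brightest probe set, with overlap, and by 0.32, 0.30 and 0.83 in the other 3, each without overlap; the last gave 7.14 and 7.32 against 7.97 and 8.16. Kat2b differed by −0.02 in its brightest probe set and by −0.67 in another, at 8.57 and 8.63 against 7.88 and 7.97, without overlap.

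Of 10 tested genes known to induce or repress Ciita, 1 rose, 0 fell and 9 did not pass, with a median of 0.00. Among all tested genes 1.11% rose. Irf8, a transcription factor of dendritic cells, macrophages and B cells, gave 5.63 and 5.65 on the Cre-negative arrays and 6.53 and 6.91 on the Cre-positive arrays and rose by 1.08 ± 0.16 (SE; limma adjusted p = 0.0495). Its other probe set gave 5.73 and 5.56 against 6.14 and 6.34, a smaller difference of 0.60. Irf8 lost its call under 9 of 14 alternatives, with adjusted p up to 0.229. Irf4 differed by 1.02 (adjusted p = 0.0795; 0.20 in its other probe set), and Irf1, which acts at the interferon-responsive Ciita promoter, by 0.77 (adjusted p = 0.075), each without overlap. The interferon gamma receptor gene Ifngr1 differed by −0.51 (adjusted p = 0.129). Genes of class II turnover at the surface, Marchf1, Marchf8 and Cd83, all lay below the filter and were not tested. By their brightest probe sets Marchf1 differed by 0.17, with overlap, and Marchf8 by 0.19. Cd83 gave 4.09 and 4.04 against 4.52 and 4.57, a difference of 0.48 without overlap.

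Over all 31 tested partners 3 were called higher, against 1.11% of all tested genes, and 0 lower, against 0.266%. The 3 include Ctsh, which was tested only because of its level on the Cre-positive arrays. An unadjusted p under 0.05 in limma was found for 9, against 20.6% of all tested genes. The median difference was 0.10, against 0.06.

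**Figure D3:**
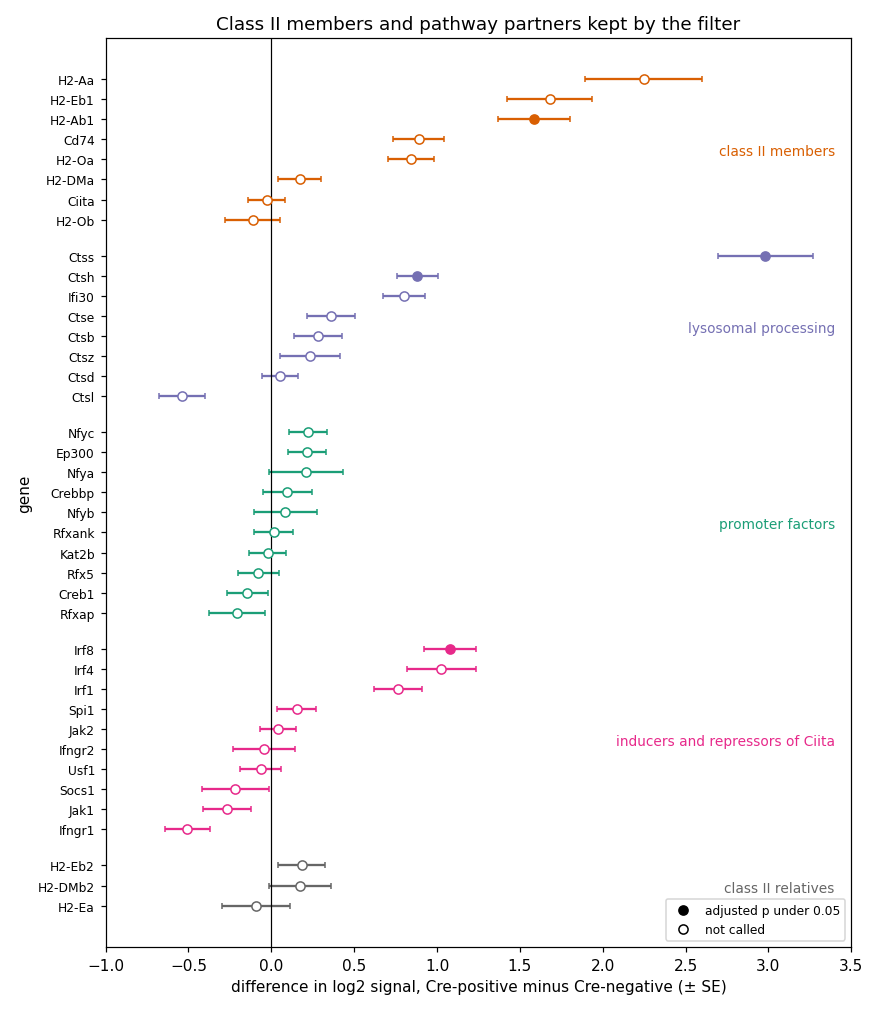
Difference in log2 signal, Cre-positive minus Cre-negative, with its SE (x axis) for the 8 members and 31 pathway partners tested (y axis), each by its brightest probe set, n = 2 arrays per group; filled points have an adjusted p under 0.05. H2-Ab1, Ctss, Ctsh and Irf8 are filled, and the 10 promoter factors lie between −0.21 and 0.22.

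The genes whose profile over the 4 arrays lay nearest to the mean profile of H2-Aa, H2-Ab1 and H2-Eb1 were Oas1a, an interferon-inducible synthetase that senses viral RNA, the claudin gene Cldn12, the interferon-inducible gene Ifi27l2a, Wscd1 and Olfml3. Likeness was the root mean square distance between centred log2 values, and it ran from 0.15 for Oas1a to 0.29 for Olfml3. Oas1a gave 6.71 and 6.16 on the Cre-negative arrays and 8.01 and 8.15 on the Cre-positive arrays, with the same low Cre-negative array 2 as the class II genes. Cd74 lay 0.54 and H2-Oa 0.59 from that profile, at ranks 133 and 211 of the 11639 genes. These distances describe 4 arrays and carry no test.

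Marker lists of non-thymocyte cells also averaged higher on the Cre-positive arrays. They include granulocyte and stromal genes, and their genes differed by unequal amounts. The dendritic list and the epithelial and stromal list had medians of 0.04 over the genes measured, against 0.03 for all genes without the filter. For the counts in each marker list, the shares of all tested genes were 1.11% called higher and 0.266% lower. The 15 macrophage and granulocyte markers measured averaged 4.74 and 4.78 on the Cre-negative arrays and 5.23 and 5.69 on the Cre-positive arrays. Of the 11 tested 1 rose, the lysozyme gene Lyz2 (1.85 ± 0.17, SE; limma adjusted p = 0.0181), 0 fell and 10 did not pass. The median difference was 0.49 over the 15 measured and 0.82 over the 11 tested, some of which passed the filter only through the Cre-positive arrays. An unadjusted limma p under 0.05 was found for 5 of the 11, against 20.6% of all tested genes. The complement gene C1qa differed by 1.11, Mpeg1 by 0.90 and Tyrobp by 0.82. C1qc, also among the 5, differed by 0.95. Its Cre-negative mean, 4.58, lay under the filter, so its p is not support for a difference. The macrophage genes Adgre1 and Fcgr1 differed by −0.03 and 0.00. The receptor gene Csf1r differed by 0.19 in its brightest probe set, with overlap. Its other probe sets differed by 1.21, at 5.36 and 5.18 against 6.63 and 6.33, and by 0.20, each without overlap. The granulocyte gene S100a8 read 8.38 on Cre-positive array 2 and 4.02 to 4.52 on the other arrays. Its partner S100a9, below the filter, read 7.14 on that array and 3.74 to 3.93 on the others.

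The 11 dendritic cell markers averaged 5.42 and 5.41 on the Cre-negative arrays and 5.67 and 5.78 on the Cre-positive arrays. Of 9 tested 2 rose, Irf8 and Id2 (2.12 ± 0.22, SE; limma adjusted p = 0.0248), with Id2 at 0.24 and 0.31 in its other probe sets, 0 fell and the median difference was 0.04 over the 11 measured. The cystatin gene Cst3, the brightest of the list, differed by 0.07. Itgax, which encodes CD11c, differed by 0.27, the dendritic cell factor gene Zbtb46 by −0.14 and the receptor gene Flt3 by −0.16. The dimmer Zbtb46 probe sets differed by 0.18, without overlap, and by −0.05 and 0.01, with overlap. Xcr1 and Cd209a lay below the filter. The 11 B cell markers averaged 4.66 and 4.68 on the Cre-negative arrays and 4.86 and 4.997 on the Cre-positive arrays. Of 5 tested limma called 0, and Ms4a1, at 0.71, was the 1 with an unadjusted p under 0.05. The Cre-negative mean of Ms4a1, 4.56, lay under the filter, so it was tested only because of its level on the Cre-positive arrays. That p is therefore not support for a difference. Bank1, Fcrla and Cd79a, all below the filter, differed by 1.09, 0.69 and 0.27. The brightest of the list, Cd79b, Cd22 and Blnk, differed by −0.08, 0.13 and −0.05, and the median over the 11 was 0.13.

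The 15 thymic epithelial and stromal markers averaged 5.30 and 5.38 on the Cre-negative arrays and 5.86 and 5.74 on the Cre-positive arrays. Of 11 tested 2 rose, the tight junction gene Cldn4 (1.00 ± 0.13, SE) and the stromal receptor gene Pdgfrb (1.05 ± 0.14), at limma adjusted p of 0.0386 and 0.04, and 0 fell. The dimmer Pdgfrb probe set gave 3.90 and 3.98 against 6.75 and 7.62, a difference of 3.24. The median difference was 0.04 over the 15 measured, against 0.03 for all genes without the filter. Over the 11 tested it was 0.06, and over all tested genes 0.06. The collagen gene Col1a2 read 5.18 and 5.33 on the Cre-negative arrays and 11.55 and 8.01 on the Cre-positive arrays, a difference of 4.52 (adjusted p = 0.107), the largest of the list. The epithelial genes Epcam and Krt5 differed by −0.13 and 0.00, the receptor gene Ly75 by 0.31, and Foxn1, Psmb11, Aire and Krt14 lay below the filter. The keratin gene Krt8 gave 5.26 and 5.31 against 5.42 and 6.01, a difference of 0.43 without overlap (limma adjusted p = 0.316). Its dimmer probe sets differed by 0.35, with overlap, and by 0.38. The 9 thymocyte markers differed in both directions, with a median of −0.14. Limma called 0, and 5 had an unadjusted p under 0.05, against 20.6% of all tested genes. Of those 5, Ptcra, the pre-T cell receptor alpha chain, had the largest difference of the list, 1.16 (adjusted p = 0.054), and Cd3e was also higher, by 0.41, while Cd1d1, Cd8a and Cd8b1 differed by −0.66, −0.30 and −0.29. The recombinase gene Rag2 differed by −0.41 and Dntt by 0.01. What part RNA of other cell types had in the class II differences was not tested.

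**Figure D4:**
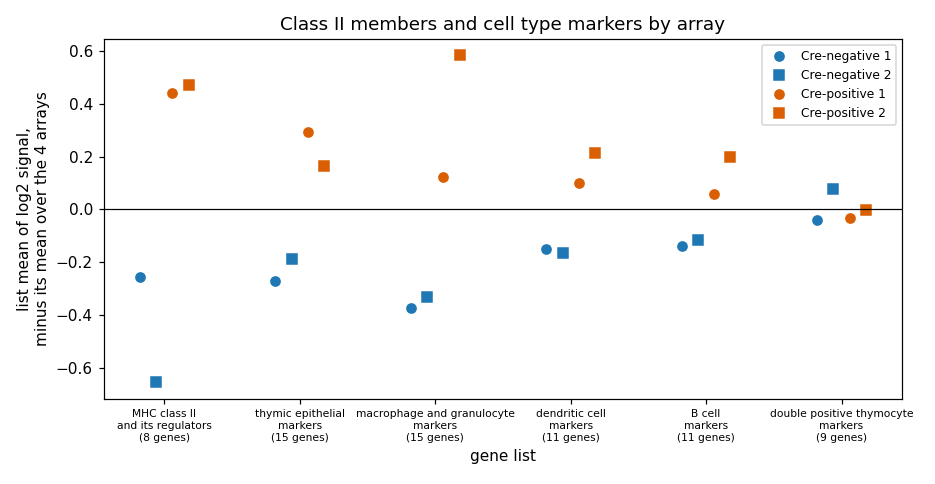
Mean log2 signal of each gene list on each array, minus the list's mean over the 4 arrays (y axis), for the class II members and 5 lists of cell type markers (x axis, with the number of genes measured). Both Cre-positive points lie above both Cre-negative points for the class II members and for the 4 lists of non-thymocyte markers, and the class II members show the largest gap within the Cre-negative group.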

How the data were processed

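Expression was measured on Affymetrix mouse arrays, 1 per mouse, from RNA amplified in a 2-cycle labelling assay, per the labels' protocols. The deposited log2 values (2.18 to 14.4) were made by the authors with RMA, per the submitters' processing notes; the base of the logarithm is not stated and was taken as 2. Symbols came from the platform annotation: of 45037 probe sets 34945 had 1 symbol, 932 several and 9160 none, and 34741 matched the RefSeq gene table.

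The probe set with the highest mean stood for each gene, and 11639 of 18193 genes with a mean at or above the 40th percentile (4.76) were tested with limma 3.58.1 (R 4.3.3, lmFit and eBayes), two-sided, with Benjamini-Hochberg adjustment over all of them, and called at an adjusted p under 0.05. With 2 arrays per group the smallest p of an exact permutation test is 0.333. Each replicate is a separate mouse, and the number of arrays limits the precision.

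The procedure was tested on simulated data. Alternatives varied the filter, the probe set, the unit of the fit, the prior, the scaling and the array weights, entered the labels' sample number as a blocking factor, or omitted 1 array at a time. The text names Ikzf1, every member, called partners and markers, the 3 partners and markers with the largest differences in each list, the 3 brightest markers of each list, and the 5 genes nearest in profile; other listed genes are examples chosen after their values were seen. Some listed genes are not analysed here. Members and lists were chosen with earlier results of these data known. Figures were drawn with matplotlib 3.10.9.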

Additional observations from a re-analysis of the deposited data

How the results depend on the processing

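The call count was the least stable quantity, while the members' median difference (0.87) lay between 0.82 and 0.91 with any array left out and was 1.58 with the filter at the 60th percentile, which keeps 5 members. The 1 called member became 3 without the filter, with an intensity trend, a robust prior, median-centred arrays or array weights, 4 with the mean of all probe sets and 0 by each gene's brightest probe set when every probe set was tested on its own, where 2 dimmer member probe sets passed; with 1 array left out it was 0 or 1, the 1 being H2-Aa. The 160 calls over all genes became 90 with the stricter filter and 245 with a robust prior, and 3 to 99 with 1 array left out (for the Cre-negative group 14 without its array 1 and 3 without its array 2, for the Cre-positive group 43 and 99). The 3 called partners became 1 with the stricter filter, by brightest probe sets with every probe set tested on its own, or with quantile normalization, and 0 or 1 with 1 array left out. Ikzf1 lay between −1.69 and −1.37 in those fits, with no call. The looser X box changed the promoters with the pair from 3 to 5.

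With the sample number as a replicate block, 821 genes, 5 members and 6 partners were called; the labels do not say that a number pairs mice, and same-numbered arrays' deviations correlated at 0.177 across 11639 genes. Among the genes named, signs turned for differences near 0. With 1 array left out H2-Ob lay between −0.32 and 0.096, Ciita between −0.079 and 0.021, H2-DMb2 between −0.082 and 0.42, Nfya between −0.096 and 0.52 and H2-Ea between −0.36 and 0.18, and with the mean of its probe sets Nfya was −0.028. The causes were not tested.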

Other observations

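Probe sets annotated to more than 1 gene entered no comparison. Of the 2 annotated to both H2-DMb1 and H2-DMb2, the brighter gave 4.96 and 5.09 on the Cre-negative arrays against 4.90 and 5.16 on the Cre-positive arrays, and the dimmer gave 3.74 and 4.07 against 4.12 and 4.01. The groups overlapped in both. The 1 annotated to both H2-Ob and a predicted gene gave 5.05 and 5.11 against 4.91 and 4.995.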
